A study of Homo sapiens with 6 samples.

Results

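The genes described here are 51 genes of DNA replication and nucleotide supply, taken by name from a list of licensing factors, fork proteins, enzymes of deoxynucleotide synthesis, and G1/S cyclins and E2F factors. They are 51 of 60675 gene rows in the count table. All 51 were among the 18267 genes that passed the filter on low counts. Total RNA after ribosomal RNA removal was sequenced from HEK293, an established line of human embryonic kidney cells that carries adenovirus DNA. The 6 libraries form 2 groups of 3, a control group with the genotype label wild type and a group labelled MOCS2 RNAi knockdown. Both groups were grown in high-glucose DMEM with fetal bovine serum and Geneticin. The labels do not say whether the knockdown cells are 1 clone or whether replicates are separate cultures, and p-values therefore cover the spread of these libraries alone, which may be technical.

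DNA is copied once in each cell cycle. In G1, the origin recognition complex, CDC6 and CDT1 load the MCM ring onto origins, and geminin (GMNN) blocks reloading afterwards. At the start of S phase, cyclin E with CDK2 promotes firing, and CDC45 and the GINS complex turn the ring into an active helicase. Polymerase alpha-primase, delta and epsilon then copy the strands, while PCNA holds delta and epsilon on DNA. Most genes of this machinery are textbook targets of E2F transcription factors, which the RB family of pocket proteins restrains. HEK293 cells express the adenovirus protein E1A, which binds that family.

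RNA of the targeted gene went against the knockdown label, since it was no lower than in controls. MOCS2, which encodes both subunits of molybdopterin synthase, stood at 57.8, 66.6 and 65.6 CPM (counts scaled to a common library size) in controls 1, 2 and 3, and at 69.8, 58.9 and 59.9 CPM in the knockdown-labelled libraries 1, 2 and 3 (below, knockdown 1, 2 and 3). The groups overlapped, with a log2 fold change of -0.01 ± 0.14 (standard error) and an edgeR adjusted p of 0.976, so each direction below is that of the labelled groups and not tied to a loss of MOCS2 RNA. Between 17958632 and 22171106 reads per library were assigned to genes, and the members' counts ran from 345 (RPA3) to 16200 (MCM7). Of the 8 HEK293 markers checked, 8 were detected, with summed levels of 1555 to 2013 CPM in controls and 1974 to 2755 CPM in the other group. Of 9 fibroblast markers, 4 stayed under 1 CPM in every library (sums of 21.0 to 34.8 against 11.4 to 19.3 CPM), as did 6 of 8 blood and endothelial markers (sums of 3.10 to 5.21 against 3.85 to 5.10 CPM), and none of the 25 markers was at 0 in all libraries.

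Promoter windows of the members were read for known cell cycle motifs. RefSeq windows of 300 bases (250 before and 50 after the start of transcription, GRCh38.p14) were found for 43 of the 51 members. MCM4, MCM5, GINS4, POLD3, RPA2, RPA3, CCNE2 and CDK2 had no entry. Motifs were chosen as words after the expression values were known, and 3 were searched on both strands. The E2F words were TTTCGCGC, TTTGGCGC, TTTCCCGC and TTTGCCGC, and hits on opposite strands can overlap each other. The words of the cell cycle genes homology region (CHR), an element known from genes expressed in G2 and mitosis, were TTTGAA and TTTAAA, the latter its own reverse complement. The word of NF-Y, a general promoter factor, was CCAAT.

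An E2F word lay in 21 of 43 member promoters (48.8%) and in 908 of 27303 promoters of the whole table (3.33%). The 21 were ORC3, CDC6, CDT1, MCM2, MCM3, MCM6, MCM7, GINS1, GINS2, GINS3, PCNA, RFC3, POLA1, POLA2, POLE, POLE2, LIG1, TYMS, E2F1, E2F2 and UHRF1. A CHR word lay in 4 of 43 member promoters (9.3%), those of RRM1, RRM2, TK1 and CCNE1, against 24.3% of all promoters. In a list of 25 mitosis genes, 20 had a promoter entry, of which 18 (90%) held a CHR word and 2 (10%) an E2F word. CCAAT was in 25 of 43 member promoters (58.1%), 15 of 20 mitosis promoters (75%) and 35.7% of all promoters. Since most members are textbook E2F targets, their share of E2F words is not an independent result. The promoters of the whole table were not matched to the members for expression or base content. These matches describe letters in a window and are not measured binding sites.

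**Figure D1:**
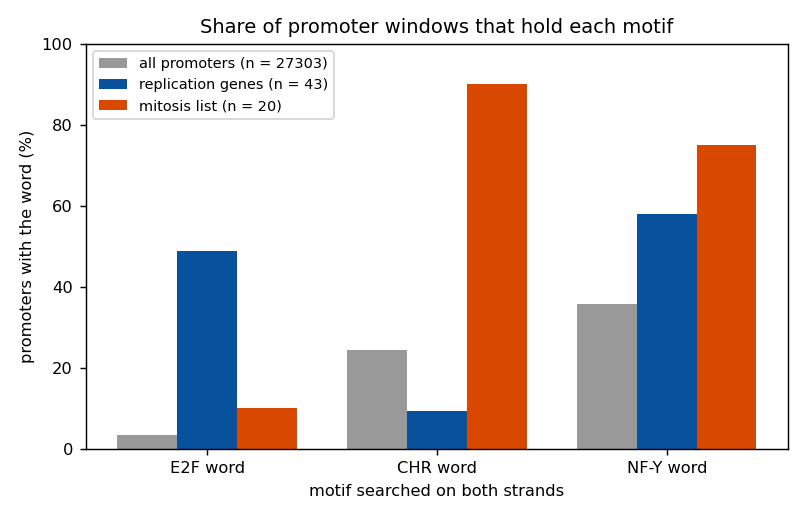
Bars give the percentage of 300-base promoter windows with at least 1 word of each motif, for all 27303 promoters (grey), the 43 replication genes with an entry (blue) and the 20 mitosis genes with an entry (orange). E2F words stand at 48.8% in replication genes and CHR words at 90% in mitosis genes.

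The promoters below are those of the members with an unadjusted p under 0.05 that had an entry, to which MCM6 was added for its overlapping E2F words and TOP2A, a mitosis gene, for comparison, both chosen after their values were seen. Capitals mark E2F words, except in RRM2 and TOP2A, where they mark CHR words, and each sequence reads 5′ to 3′ on the gene's strand with GRCh38.p14 coordinates.
E2F2, minus strand, chr1:23531184-23531483: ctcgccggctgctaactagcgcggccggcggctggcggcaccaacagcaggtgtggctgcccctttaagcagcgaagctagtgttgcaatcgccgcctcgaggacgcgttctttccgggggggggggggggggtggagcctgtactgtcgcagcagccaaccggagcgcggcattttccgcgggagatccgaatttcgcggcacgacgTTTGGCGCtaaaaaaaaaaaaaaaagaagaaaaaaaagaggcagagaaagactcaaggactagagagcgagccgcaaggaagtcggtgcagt
UHRF1, plus strand, chr19:4909251-4909550: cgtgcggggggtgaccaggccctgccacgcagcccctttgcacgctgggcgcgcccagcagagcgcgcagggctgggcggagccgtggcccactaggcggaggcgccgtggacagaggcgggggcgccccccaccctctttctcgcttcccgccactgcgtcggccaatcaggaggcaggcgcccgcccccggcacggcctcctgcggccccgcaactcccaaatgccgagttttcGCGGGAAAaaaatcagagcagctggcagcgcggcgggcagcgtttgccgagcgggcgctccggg
MCM10, plus strand, chr10:13161308-13161607: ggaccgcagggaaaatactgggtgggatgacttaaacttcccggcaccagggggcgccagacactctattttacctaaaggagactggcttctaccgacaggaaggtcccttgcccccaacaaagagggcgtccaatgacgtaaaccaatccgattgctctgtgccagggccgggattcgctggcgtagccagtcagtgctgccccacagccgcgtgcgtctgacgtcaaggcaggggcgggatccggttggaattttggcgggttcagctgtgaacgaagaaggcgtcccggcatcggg
RRM2, plus strand, chr2:10122489-10122788: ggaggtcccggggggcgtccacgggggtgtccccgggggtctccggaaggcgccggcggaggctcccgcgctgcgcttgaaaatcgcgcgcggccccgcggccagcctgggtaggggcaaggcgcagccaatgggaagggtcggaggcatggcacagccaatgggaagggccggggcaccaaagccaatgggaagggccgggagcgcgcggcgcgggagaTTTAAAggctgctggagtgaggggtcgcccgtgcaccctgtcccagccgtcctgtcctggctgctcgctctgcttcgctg
POLA2, plus strand, chr11:65261712-65262011: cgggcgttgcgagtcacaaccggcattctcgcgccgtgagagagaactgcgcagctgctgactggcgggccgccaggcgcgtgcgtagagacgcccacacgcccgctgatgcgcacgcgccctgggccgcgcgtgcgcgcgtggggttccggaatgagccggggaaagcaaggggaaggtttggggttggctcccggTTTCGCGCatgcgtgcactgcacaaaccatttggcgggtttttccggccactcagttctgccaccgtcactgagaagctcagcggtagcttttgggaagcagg
MCM6, minus strand, chr2:135876394-135876693: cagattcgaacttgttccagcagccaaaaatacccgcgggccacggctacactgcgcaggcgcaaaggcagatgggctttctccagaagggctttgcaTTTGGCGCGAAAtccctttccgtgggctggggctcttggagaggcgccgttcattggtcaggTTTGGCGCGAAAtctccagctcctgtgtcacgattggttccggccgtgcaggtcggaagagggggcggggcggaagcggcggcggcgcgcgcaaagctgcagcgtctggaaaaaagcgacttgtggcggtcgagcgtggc
TOP2A, minus strand, chr17:40417847-40418146: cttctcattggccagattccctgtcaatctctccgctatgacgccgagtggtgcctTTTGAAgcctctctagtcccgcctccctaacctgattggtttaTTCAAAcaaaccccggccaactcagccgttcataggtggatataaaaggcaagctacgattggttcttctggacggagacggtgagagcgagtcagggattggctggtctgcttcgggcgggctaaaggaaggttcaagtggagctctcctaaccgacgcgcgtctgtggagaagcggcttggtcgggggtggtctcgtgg

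Counting the first transcribed base as 1 and the base before it as -1, the E2F word spans bases -42 to -35 in E2F2, -53 to -46 in POLA2 and, on the opposite strand, -14 to -7 in UHRF1. MCM6 holds 4 words in overlapping pairs, from -152 to -141 and from -90 to -79. The window of MCM10 holds none of the E2F or CHR letters searched. It does hold tttggcgg, which differs from the word TTTGGCGC in the last letter only. POLA2 (tttggcgg) and E2F2 (tttcgcgg) also hold such near matches, left unmarked. A promoter without a searched word may thus still carry a related one. RRM2 has its CHR word at -30 to -25, and TOP2A has CHR words at -194 to -189 and at -151 to -146. The RefSeq starts of RRM2 and UHRF1 lie inside the longer GENCODE gene models.

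No replication gene passed the test between the groups. The edgeR quasi-likelihood test with Benjamini-Hochberg adjustment over 18267 genes called 0 of 51 members higher (0% of all genes) and 0 lower (0% of all genes), with a smallest member adjusted p of 0.107, for E2F2. By an unadjusted p under 0.05, 4 members were higher (MCM10, RRM2, E2F2 and UHRF1, 7.84% of the members against 9.93% of all genes), and 2 were lower (POLA2 and RPA3, 3.92% against 10.6%). Values did not overlap between the groups for 5 members above the controls (9.8%, against 12.5% of all genes) and for 5 below (9.8%, against 14.3%). None of these shares exceeded that of the whole table. DESeq2 called 1 member higher, E2F2 (adjusted p = 0.0216), where it called 3.08% of all genes higher and 3.26% lower.

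The fold changes of the members were small and narrow in range. Their log2 fold changes (libraries labelled knockdown minus control) ran from -0.55 (POLA2) to 0.72 (E2F2), with 32 above 0, 19 below 0 and a median of 0.11, against a median of 0.02 over all genes. The 95% interval of the log2 fold change stayed within -1 and 1 for 48 of 51 members (94.1%), against 62.8% of all genes. All genes include some of low count, while no member had fewer than 345 reads in a library, and these shares were not matched for count. The exceptions were RRM2, CCNE2 and E2F2, whose intervals reached above 1. In the mitosis list, the intervals of 4 of 25 genes (16%) stayed within those bounds.

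**Figure D2:**
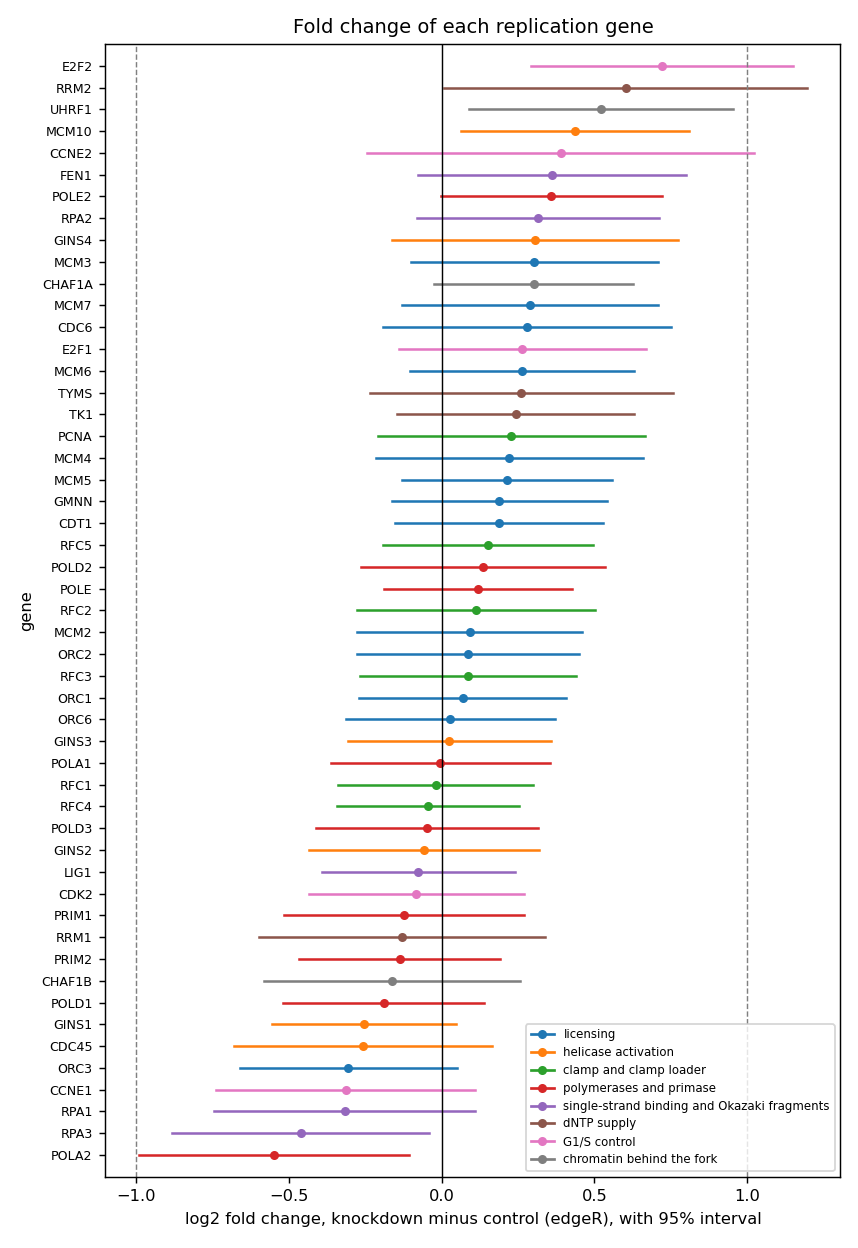
Points give the edgeR log2 fold change of each of the 51 genes, in order of size and coloured by role, and lines the 95% interval, with dashed lines at -1 and 1. Of the 51 intervals, 48 lie between the dashed lines, and E2F2 (0.72) and POLA2 (-0.55) mark the ends of the order.

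The libraries labelled knockdown differed among themselves. Relative to the control mean, the median log2 level of the 51 genes was 0.30 in knockdown 1, -0.08 in knockdown 2 and 0.00 in knockdown 3, while the controls lay at 0.00, 0.04 and -0.04. In knockdown 1, 36 of 51 genes lay above all controls and 8 below, in knockdown 2 the counts were 15 and 22, and in knockdown 3 they were 15 and 17. Above all controls these are 70.6%, 29.4% and 29.4% of the members, against 37.6%, 38.4% and 30.6% of all genes. Below all controls they are 15.7%, 43.1% and 33.3%, against 38.5%, 39% and 31.7% of all genes. Of the 51 genes, 30 had their highest value of all 6 libraries in knockdown 1 (58.8%, against 23.7% of all genes). The members' log2 CPM had a median SD of 0.08 in the control group and 0.29 in the other group, where the median over all genes was 0.16 and 0.31. Without knockdown 1, the median log2 fold change of the members was -0.03, with 22 above 0 and 29 below, and 10 members had the other sign (ORC1, ORC6, CDC6, MCM2, MCM4, GINS3, PCNA, RFC2, RFC3 and CCNE2). Over 15 fits that varied the scaling, the test, the filter and the libraries, 31 of 51 members kept 1 sign.

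**Figure D3:**
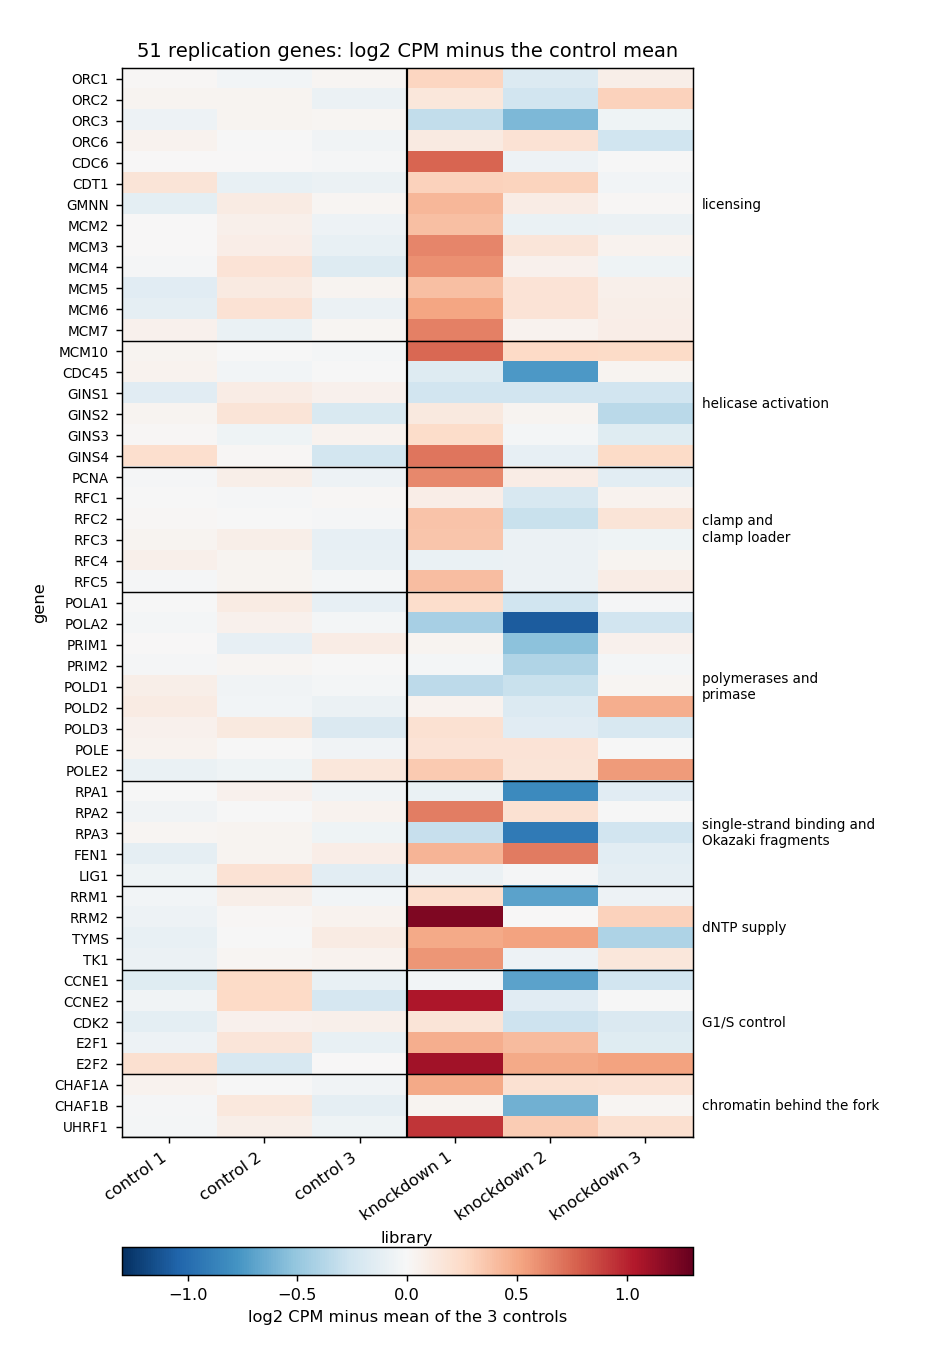
Each row is 1 of the 51 genes, grouped by role, each column a library, and the colour is log2 CPM minus the mean of the 3 controls, from blue (lower) to red (higher). The column of knockdown 1 is mostly red, with 36 genes above all controls, and the bluest cells of knockdown 2 are POLA2, RPA3 and RPA1.

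Leaving out knockdown 3 was the single omission that gave member calls. In that fit, edgeR called 4 members higher, which were E2F2 (log2 fold change 0.81, adjusted p = 0.022), FEN1 (0.55, adjusted p = 0.0346), TYMS (0.50, adjusted p = 0.0418) and UHRF1 (0.65, adjusted p = 0.0442), and 1 lower, POLA2 (-0.73, adjusted p = 0.0316). These are 7.84% and 1.96% of the members, where the same fit called 6.46% of all genes higher and 8.3% lower. Levels of mitosis genes also separated knockdown 3 from the other pair. Their median log2 level was -1.06 in knockdown 1, -1.55 in knockdown 2 and -0.01 in knockdown 3, and that of 52 replication-dependent histone genes, whose RNA is made in S phase, was -1.68, -1.63 and -0.37. The mitosis genes were spread in knockdown 3, where 6 of 25 (24%, against 31.7% of all genes) lay below all controls. Another 7 (28%, against 30.6%) lay above all controls there. In bulk RNA, fewer cells in a phase and less RNA per cell cannot be told apart, and the part of cell cycle phase in the values of the replication genes was not tested.

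**Figure D4:**
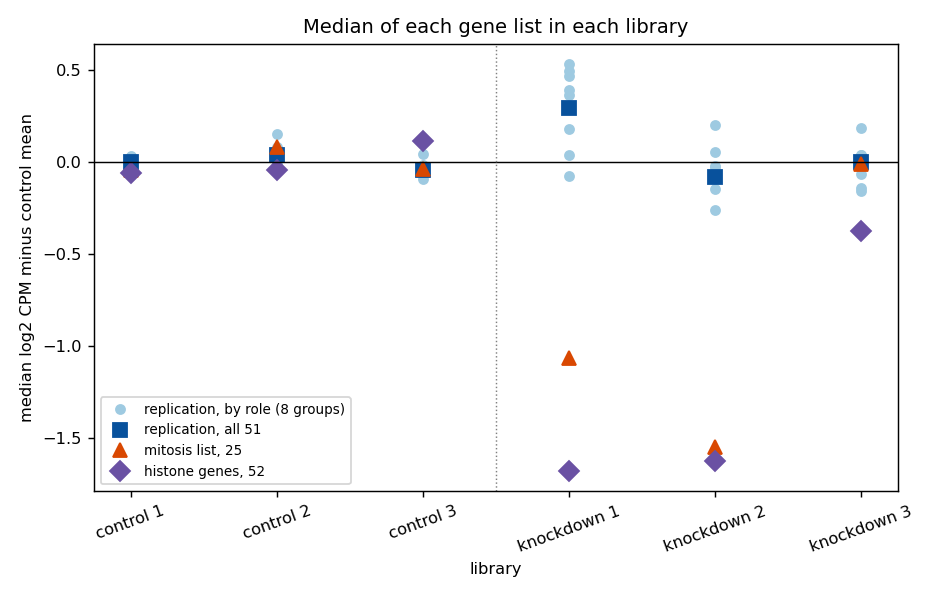
Points give the median log2 CPM minus control mean in each library for the 51 replication genes (squares), their 8 role groups (pale circles), 25 mitosis genes (triangles) and 52 histone genes (diamonds). In knockdowns 1 and 2 the mitosis medians lie at -1.06 and -1.55 while the replication medians lie at 0.30 and -0.08.

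Of the 13 origin licensing genes, 12 had a positive log2 fold change and ORC3 a negative one, none passed (adjusted p from 0.306 to 0.937), and the median was 0.19. Without knockdown 1, 7 were positive and 6 negative, with a median of 0.05. MCM7, a subunit of the MCM ring, stood at 607, 549 and 593 CPM in controls 1, 2 and 3 and at 916, 602 and 620.5 CPM in knockdowns 1, 2 and 3. Only knockdown 1 was far from the controls, and the log2 fold change was 0.29 (adjusted p = 0.41). MCM3, another subunit, gave 479, 506 and 445 CPM against 740, 532 and 492 CPM, a log2 fold change of 0.30. The subunit MCM6 gave 151, 185 and 155 CPM against 232, 184 and 172 CPM, a log2 fold change of 0.26. In all 3 subunits the highest value was that of knockdown 1, and knockdown 3 lay among the controls in MCM3 and MCM6. Without knockdown 1, the log2 fold changes were 0.06 in MCM7, 0.10 in MCM3 and 0.12 in MCM6. ORC3, a subunit of the origin recognition complex, went the other way, with 111, 119 and 118 CPM in controls and 93.2, 77.4 and 111 CPM in the other group (log2 fold change -0.31, adjusted p = 0.306). Its value in knockdown 3 lay just inside the controls' range, and without knockdown 2 the log2 fold change was -0.19. The other 9 licensing genes (ORC1, ORC2, ORC6, CDC6, CDT1, GMNN, MCM2, MCM4 and MCM5) had log2 fold changes from 0.03 to 0.28. Of the MCM2 exon length, 23.6% is shared with genes on the opposite strand. In knockdown 1, 12 of the 13 (92.3%) lay above all controls, against 37.6% of all genes. The counts above were 4 in knockdown 2 (30.8%, against 38.4%) and 3 in knockdown 3 (23.1%, against 30.6%). Below all controls lay 1, 5 and 2 in knockdowns 1, 2 and 3 (7.69%, 38.5% and 15.4%, against 38.5%, 39% and 31.7% of all genes).

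The genes that turn the loaded ring into a helicase were split, 3 of 6 on each side of 0. MCM10 (ENSG00000065328, chr10:13161554-13211104, plus strand, GRCh38), which helps to activate the helicase, stood at 157, 153 and 151 CPM in controls and at 258, 184 and 182 CPM in the knockdown-labelled libraries. All 3 of the latter lay above all controls, with means of 153.5 ± 3.10 and 207.8 ± 43.1 CPM (SD, n = 3 each). The log2 fold change was 0.44 ± 0.17 (standard error) with an edgeR adjusted p of 0.187, and 0.25 without knockdown 1. GINS1, a GINS subunit, was the counterpart, with 72.6, 85.7 and 83.2 CPM against 67.5, 67.6 and 67.5 CPM. The 3 libraries labelled knockdown lay below all controls and close together, and the log2 fold change was -0.25 (adjusted p = 0.316). GINS4, the subunit with 23.6% of its exon length shared with genes on the opposite strand, gave 49.2, 42.7 and 35.9 CPM against 68.6, 39.2 and 50.1 CPM. Its groups overlapped (log2 fold change 0.31, adjusted p = 0.434, and 0.07 without knockdown 1). CDC45, GINS2 and GINS3 had log2 fold changes of -0.26, -0.06 and 0.02, with overlapping groups.

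Clamp and clamp loader genes showed no difference past the test, with adjusted p from 0.541 to 0.952 over 6 genes. PCNA, the sliding clamp, stood at 331, 354 and 320.3 CPM in controls and at 516, 357 and 304.5 CPM in knockdowns 1, 2 and 3. Knockdown 1 was far above the controls, knockdown 2 just above and knockdown 3 below them, and the log2 fold change of 0.23 turned to -0.02 without knockdown 1. RFC5, a subunit of the loader, gave 97.9, 102 and 96.9 CPM against 130.1, 93.4 and 106 CPM, a log2 fold change of 0.15 that was 0.01 without knockdown 1. The loader subunit RFC2 gave 124, 122 and 122 CPM against 159, 101 and 138 CPM, a log2 fold change of 0.11 that was -0.04 without knockdown 1. Controls of both loader genes lay within a few CPM of each other, while knockdown 2 lay below them and knockdowns 1 and 3 above. RFC1, RFC3 and RFC4 had log2 fold changes of -0.02, 0.09 and -0.04. PCNA has 3 pseudogenes named after it and RFC3 and RFC5 have 1 each, so their counts may lack or share reads.

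Of 9 polymerase and primase genes, 6 had a negative log2 fold change, none passed the test, and the median was -0.05. The median was 0.04, with 5 positive and 4 negative, without knockdown 2, and 0.01 with the same split without control 2 and with library weights. POLA2 (ENSG00000014138, chr11:65261762-65305589, plus strand), the accessory subunit of polymerase alpha, was the lowest of all 51 genes by log2 fold change. It stood at 68.9, 72.7 and 68.7 CPM in controls and at 51.8, 33.0 and 58.9 CPM in the knockdown-labelled libraries, which all lay below the controls and were lowest in knockdown 2. The means were 70.1 ± 2.28 and 47.9 ± 13.4 CPM (SD, n = 3 each), a log2 fold change of -0.55 ± 0.20 (standard error) with an edgeR adjusted p of 0.167, and -0.35 without knockdown 2. Of its exon length, 35.1% is shared with AP000944.2, a gene on the same strand, so reads there cannot be assigned with certainty. POLE2, the second subunit of polymerase epsilon, gave 24.2, 24.7 and 28.5 CPM against 32.5, 28.9 and 37.9 CPM. Its groups did not overlap, by a margin of under 1 CPM, and the log2 fold change was 0.36 (adjusted p = 0.248). POLE, the catalytic subunit of the same enzyme, gave 199, 192 and 186 CPM against 217, 218 and 192 CPM, a log2 fold change of 0.12. POLD1, the catalytic subunit of polymerase delta, gave 77.8, 71.3 and 72.5 CPM against 58.4, 60.5 and 75.2 CPM, a log2 fold change of -0.19 (adjusted p = 0.494). In POLD1, knockdown 3 lay among the controls and the other pair below them. The primase subunits PRIM1 and PRIM2 had log2 fold changes of -0.12 and -0.14. PRIM2 lay below all controls in every library labelled knockdown, but only narrowly in knockdowns 1 and 3 (edgeR adjusted p = 0.629). Of the PRIM1 exon length, 21.6% is shared with genes on both strands. POLA1, POLD2 and POLD3 had log2 fold changes of 0.00, 0.14 and -0.05.

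The 3 subunits of RPA, the complex that coats single-stranded DNA, did not share a direction. RPA3 (ENSG00000106399, chr7:7636518-7718607, minus strand), the smallest subunit, stood at 35.4, 35.5 and 33.3 CPM in controls and at 28.2, 18.3 and 29.1 CPM in the knockdown-labelled libraries, which all lay below the controls. The means were 34.7 ± 1.25 and 25.2 ± 5.97 CPM (SD, n = 3 each), a log2 fold change of -0.46 ± 0.19 (standard error) with an edgeR adjusted p of 0.211, and -0.29 without knockdown 2. RPA1, the largest subunit, gave 159.9, 167 and 156 CPM against 152, 90.9 and 145 CPM, all below the controls and lowest in knockdown 2, with a log2 fold change of -0.32 (adjusted p = 0.375, and -0.13 without knockdown 2). RPA2 gave 111, 114 and 117.5 CPM against 181, 131 and 114 CPM, a log2 fold change of 0.32 (adjusted p = 0.344, and 0.10 without knockdown 1) with knockdown 3 among the controls. FEN1, the flap endonuclease that trims Okazaki fragments, gave 102, 114 and 118 CPM against 151, 177.5 and 101 CPM. Its knockdowns 1 and 2 lay above all controls and knockdown 3 below, and the log2 fold change was 0.36 (adjusted p = 0.328, and 0.17 without knockdown 2). LIG1, the ligase that seals the fragments, had a log2 fold change of -0.08. RPA2 has 3 named pseudogenes and FEN1 has 1.

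In nucleotide supply, 3 of 4 genes had a positive log2 fold change and none passed. RRM2 (ENSG00000171848, chr2:10120698-10131419, plus strand), the regulated subunit of ribonucleotide reductase, stood at 280.5, 297 and 302 CPM in controls and at 681, 295 and 360 CPM in knockdowns 1, 2 and 3. The groups overlapped through knockdown 2, knockdown 3 lay above all controls, and knockdown 1 alone lay far above the rest. The means were 293 ± 11.4 and 445 ± 207 CPM (SD, n = 3 each), a log2 fold change of 0.60 ± 0.27 (standard error) with an edgeR adjusted p of 0.239. Without knockdown 1 it was 0.16. Of the RRM2 exon length, 20.2% is shared with AC007240.1 on the same strand, and 3 pseudogenes are named after RRM2, so its counts are uncertain. RRM1, the large subunit of the same enzyme, had a log2 fold change of -0.13. TYMS, thymidylate synthase, gave 103, 110.5 and 119 CPM against 156, 159 and 83.8 CPM, a log2 fold change of 0.26 (adjusted p = 0.534, and 0.10 without knockdown 2). Its knockdowns 1 and 2 lay above all controls and knockdown 3 below, the same order as in FEN1. Since 46.6% of the TYMS exon length is shared with ENOSF1 and TYMSOS on the opposite strand and no source states whether the counting used strand, reads of these genes cannot be told apart. TK1, thymidine kinase of the salvage route, gave 53.0, 56.9 and 57.6 CPM against 83.0, 53.5 and 61.7 CPM, a log2 fold change of 0.24 (0.04 without knockdown 1) with knockdown 2 among the controls.

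Among the regulators of the G1/S step, E2F2 (ENSG00000007968, chr1:23506430-23531220, minus strand) had the largest log2 fold change of the 51 genes. This activator of the E2F family stood at 53.6, 40.1 and 46.7 CPM in controls and at 99.2, 65.5 and 66.7 CPM in the knockdown-labelled libraries. All 3 lay above all controls, and the lowest exceeded the highest control by more than 10 CPM. The means were 46.8 ± 6.74 and 77.2 ± 19.1 CPM (SD, n = 3 each), a log2 fold change of 0.72 ± 0.19 (standard error) with a 95% interval from 0.29 to 1.15. The edgeR adjusted p was 0.107, and E2F2 was called by DESeq2, by voom with library weights (adjusted p = 0.0409) and in the fit with no filter (adjusted p = 0.0149). E2F1, the other activator here, gave 52.7, 61.2 and 51.5 CPM against 76.2, 73.2 and 49.3 CPM, a log2 fold change of 0.26 (adjusted p = 0.434, and 0.15 without knockdown 1). In E2F1, knockdowns 1 and 2 lay above the controls and knockdown 3 below. CCNE1, cyclin E1, gave 55.7, 73.8 and 57.9 CPM against 60.4, 38.3 and 52 CPM, a log2 fold change of -0.31 (adjusted p = 0.377, and -0.16 without knockdown 2). Its partner kinase CDK2 gave 106, 121 and 122 CPM against 131, 96.4 and 102 CPM, a log2 fold change of -0.08. Of the CDK2 exon length, 16.8% is shared with genes on the opposite strand. CCNE2, the second cyclin E gene, had a log2 fold change of 0.39 (adjusted p = 0.464) that was -0.09 without knockdown 1, and 37.1% of its exon length is shared with genes on the opposite strand.

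Of the 3 genes that act on chromatin behind the fork, 2 lay above the controls in every library labelled knockdown. Over all genes 12.5% did so, and over the 51 members 9.8%. UHRF1 (ENSG00000276043, chr19:4903080-4962154, plus strand), which reads hemimethylated DNA and recruits the maintenance methyltransferase, stood at 172, 185 and 168 CPM in controls and at 332, 219 and 202 CPM in the other group. The means were 175 ± 8.77 and 251 ± 70.7 CPM (SD, n = 3 each), a log2 fold change of 0.52 ± 0.20 (standard error) with an edgeR adjusted p of 0.177, and 0.26 without knockdown 1. CHAF1A, the large subunit of the chromatin assembly factor CAF-1, gave 172, 167 and 162 CPM against 235.5, 192 and 190.1 CPM, a log2 fold change of 0.30 (adjusted p = 0.276, and 0.19 without knockdown 1). CHAF1B, another subunit of the same complex, gave 114, 127 and 106 CPM against 118, 74.4 and 117 CPM, so that its groups overlapped. Its log2 fold change of -0.16 became 0.02 without knockdown 2.

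**Figure D5:**
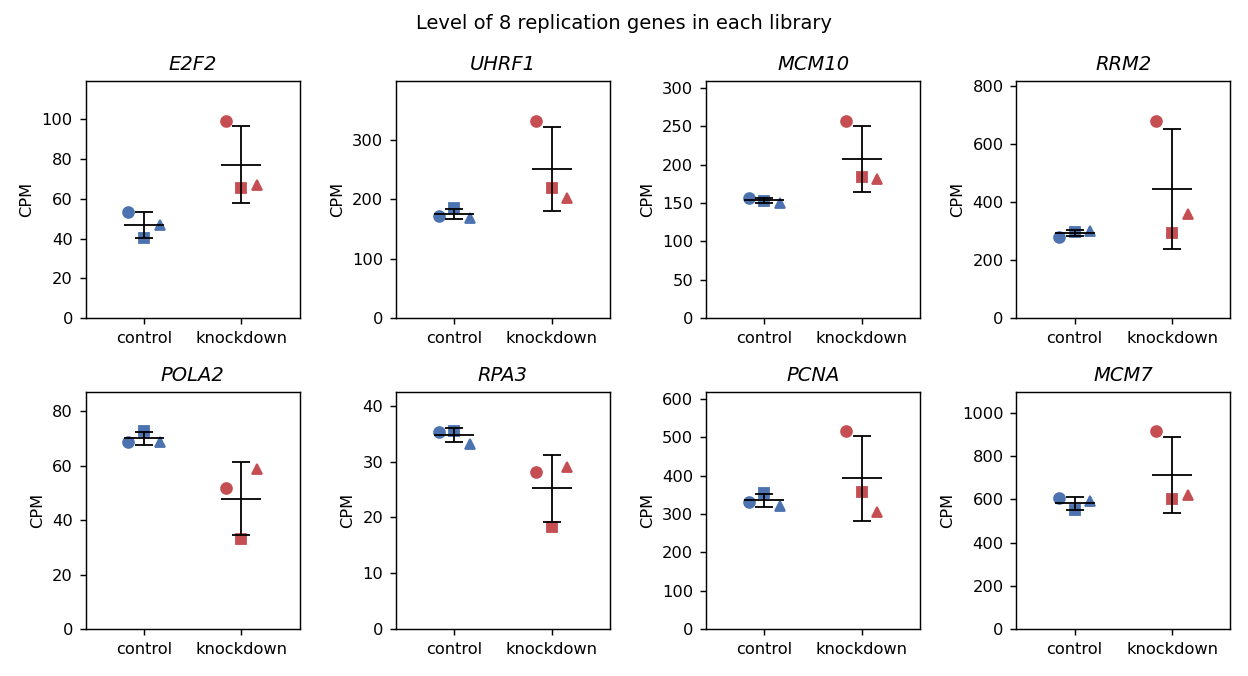
Each panel shows CPM in the 3 control (blue) and 3 knockdown-labelled (red) libraries of 1 gene, with circles, squares and triangles for replicates 1, 2 and 3 and bars for the mean and SD. E2F2, UHRF1 and MCM10 do not overlap between groups, and POLA2 and RPA3 lie below their controls. RRM2, PCNA and MCM7 overlap between groups and have their highest value in knockdown 1.

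Per length, the levels of the genes spread widely in the control group. Length here is that of all annotated exons of a gene, merged, and not that of the transcripts expressed in these cells. The pseudogenes of PCNA and the shared exons of GINS4 given above limit their levels here too. PCNA was the most abundant, with 228 ± 11.8 CPM per kilobase of exon (SD, n = 3), followed by MCM7 at 133 ± 6.86 and MCM3 at 131 ± 8.30, which did not differ beyond their spread. RRM1 at 57.8 ± 2.64, RPA2 at 56.5 ± 1.69 and RRM2 at 55.1 ± 2.14 CPM per kilobase also lay within each other's spread, with the limit on RRM2 counts given above. In the knockdown-labelled libraries, RRM2 stood at 83.7 ± 38.9 and RRM1 at 52.7 ± 15.9 CPM per kilobase. The least abundant were GINS4 at 7.78 ± 1.22, E2F2 at 8.57 ± 1.23 and POLE2 at 8.74 ± 0.80 CPM per kilobase, which again overlapped. E2F1 stood at 22 ± 2.12 CPM per kilobase, above E2F2 in controls and, at 26.5 ± 5.88 against 14.1 ± 3.50, also in the other group. PCNA, MCM7 and MCM3 held the top ranks in both groups.

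Members with and without an E2F word in the promoter were set side by side as a description. The 21 with a word had median log2 levels relative to control of 0.36, 0.05 and -0.06 in knockdowns 1, 2 and 3, and a median log2 fold change of 0.19. The 22 without one had medians of 0.14, -0.19 and 0.04, and a median log2 fold change of 0.05. Both E2F2, the highest, and POLA2, the lowest gene by log2 fold change, carry an E2F word.

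Other genes of the pathway, in 5 lists of 107 genes that are no members, likewise gave 0 calls in either direction by edgeR, with a median log2 fold change of 0.10. Of them 14 (13.1%, against 9.93% of all genes) had an unadjusted p under 0.05 and a positive sign, and 5 (4.67%, against 10.6%) a negative one. Their median log2 levels of 0.21, -0.07 and 0.09 in knockdowns 1, 2 and 3 had the same highest library as the members. Among 29 other replication factors, MCM9, a helicase of the MCM family, gave 45.8, 43.2 and 38.1 CPM against 77.6, 65.4 and 50.6 CPM (log2 fold change 0.61, adjusted p = 0.117), with all 3 above the controls. POLE4, a small subunit of polymerase epsilon, gave 16, 13.6 and 18.4 CPM against 47.8, 20.6 and 20.4 CPM (0.89, adjusted p = 0.155, and 0.36 without knockdown 1). MCMBP, an MCM binding protein, had a log2 fold change of 0.22. In nucleotide supply outside the members (29 genes), CTPS1, which makes CTP, gave 161, 142 and 126 CPM against 253, 189.7 and 169 CPM (0.51, adjusted p = 0.158). CAD, the entry enzyme of pyrimidine synthesis, had a log2 fold change of 0.45 (adjusted p = 0.162).

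The list of other G1/S regulators held 30 genes. RBL2, the pocket protein p130, gave 115, 145 and 103 CPM in controls and 52.1, 69.7 and 74.6 CPM in the knockdown-labelled libraries, all 3 below the controls (log2 fold change -0.89 ± 0.19, edgeR adjusted p = 0.078). CDKN1A, the CDK inhibitor p21, gave 175, 126 and 209.8 CPM against 439, 459 and 178 CPM, so that knockdown 3 lay inside the controls' range (1.08 ± 0.32, edgeR adjusted p = 0.12). Both passed in DESeq2 (adjusted p of 0.00224 and 0.0134). MYBL2, a partner of the MuvB complex, had a log2 fold change of 0.60 (adjusted p = 0.144). In the checkpoint list of 9, the kinase ATR gave 59.5, 78.4 and 62.5 CPM against 30.1, 37.0 and 56.6 CPM (-0.70, adjusted p = 0.138), while RAD1, a subunit of the checkpoint clamp, and the kinase WEE1 had log2 fold changes of 0.58 and 0.51. In replication-coupled chromatin (10 genes), TONSL, HELLS and DNMT1 had log2 fold changes of 0.47, 0.33 and 0.16.

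Mitosis genes were read over the same libraries for comparison. All 25 had a negative log2 fold change with a median of -0.69, 0 passed by edgeR and 12 (48%, against 10.6% of all genes) had an unadjusted p under 0.05. TOP2A, the decatenating topoisomerase, stood at 1204.5, 1431 and 1108 CPM in controls and at 415, 376 and 1145 CPM in knockdowns 1, 2 and 3 (log2 fold change -0.95, adjusted p = 0.187). Knockdown 3 lay among the controls and the other pair far below. MKI67, the proliferation marker, had a log2 fold change of -0.69 (adjusted p = 0.129) and the kinase AURKB one of -0.65 (adjusted p = 0.161). Without knockdown 3, edgeR called 23 of the 25 mitosis genes and 46 of 52 histone genes lower, against 8.3% of all genes. The replication members called in that fit were the 4 higher and 1 lower given above. With all libraries, 0 histone genes passed by edgeR, and 46 of 52 were lower by an unadjusted p under 0.05 (10.6% of all genes). In knockdown 3, 88.5% of the histone genes lay below all controls, against 31.7% of all genes. The difference between these lists was not tested.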

How the data were processed

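The authors deposited raw read counts per Ensembl gene, made with bcl2fastq 2.18, TopHat2 2.0.13 and HTSeq on hg38, per the submitters' processing notes. Not given in the sources used here: HTSeq version, annotation release and strand setting, although the kit was stranded, per the labels' protocols. The 5 special HTSeq rows were left out (reads outside genes made up 21.5% to 37.5% of uniquely aligned reads). GENCODE 29 gave symbols for 57055 identifiers and positions on GRCh38, and RefSeq the promoters.

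The test was that of edgeR 4.0.16 (R 4.3.3, TMM, filterByExpr, quasi-likelihood F test, two-sided, Benjamini-Hochberg, threshold 0.05). Log2 CPM used a prior count of 2, and intervals are at 95% on 10.6 degrees of freedom. The code was tested on simulated data. Alternatives used limma 3.58.1, DESeq2 1.42.0 (2128 genes without an adjusted p), other scaling and filters, a replicate block, and each library left out. Values were given for the 3 members per role with the smallest unadjusted p and the most abundant one, and for each other list the 2 with the smallest p and the most abundant one. A gene that this rule names is not reported here. The members and lists were chosen with earlier results of these data known. Each pair of replicates differed by more than sampling noise and was kept as separate samples. The chi-square per degree of freedom was 10 to 17.6 between controls and 36.3 to 63.7 between libraries labelled knockdown.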

Additional observations from a re-analysis of the deposited data

Results flagged for a closer look

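Reads that fell outside annotated genes were not used in any comparison. In knockdown 2 they made up 37.5% of uniquely aligned reads, above the 23.6% to 25% of the 3 controls, while knockdowns 1 and 3 stood at 22.3% and 21.5%. Knockdown 2 was also the library with the lowest value in 20 of the 51 replication genes (39.2%, against 25.6% of all genes). The part of these reads in the values of the replication genes was not tested.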

How the results depend on the processing

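Of the 51 members, 31 kept the direction of their log2 fold change in every alternative. Among the 28 members with values in each library, the 3 that turned, by leaving out each library in turn, were PCNA (-0.022 to 0.38), RFC2 (-0.041 to 0.27) and CHAF1B (-0.27 to 0.017). MOCS2 was at 0.0095 with upper-quartile factors, 0.052 with library weights and -0.094 to 0.027 over the omissions. Calls over all genes, higher and lower, numbered 562 and 595 with DESeq2, 378 and 503 with library weights, 694 and 880 with no filter, and 0 to 1232 and 0 to 1583 over the omissions. Members called higher numbered 1 with DESeq2, library weights or no filter, and 0 to 4 over the omissions, and members called lower 0 to 1. The other pathway lists gave 2 higher and 1 lower with DESeq2 and with library weights, 2 and 3 with no filter, and 0 to 10 and 0 to 6 over the omissions. Mitosis genes called lower numbered 1 with DESeq2, 12 with library weights, 16 with no filter and 0 to 23 over the omissions. The upper ends come from leaving out knockdown 3, and leaving out control 3 gave 4 genes lower. The cause was not tested. With the replicate number as a block, 6 genes were higher and 13 lower, none of them members. Deviations from the group mean correlated at 0.114, -0.167 and -0.125 in same-numbered libraries and at up to 0.189 in others. With 3 libraries per group, these values cannot decide whether the numbers pair the samples.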
